A study of Mus musculus with 12 samples.

Results

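Arginine can be turned into proline through ornithine, and 7 genes of this route are described: Oat, Odc1, Aldh18a1, Pycr1, Ass1, Asl and Prodh. They were taken by name from a table of 55401 mouse genes, and the set was chosen with measured differences between untreated cells and cells given transforming growth factor beta 1 (TGF-β1) in view, so all differences between TGF-β1 and untreated cells are given for these genes as a description without a test. The cells were bone marrow mesenchymal stem cells (MSCs) of C57BL/6 mice, bought from a supplier and grown in culture. The 4 groups held 3 mRNA libraries each: untreated MSCs, MSCs given TGF-β1, MSCs given TGF-β1 with supernatant of monocytic myeloid-derived suppressor cells (M-MDSC sup), and MSCs given TGF-β1 with supernatant of granulocytic ones (G-MDSC sup). The sample labels give neither dose nor time, and the study's methods describe such cultures with 5 ng/mL TGF-β1 for 24 h. The suppressor cells were raised from C57BL/6 bone marrow with GM-CSF and IL-6 and then sorted, and the label of the control group says only that it was untreated. Per the study's methods, MSCs were grown in DMEM. Suppressor cells were kept in RPMI medium with pyruvate and non-essential amino acids, also after sorting. No group was given that medium without suppressor cells, so effects of medium and of suppressor cell products cannot be told apart. No source used here says that the 3 libraries of a group came from separate cultures, so p-values measure the spread between these libraries, which may be technical.

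Arginine is first cut into urea and ornithine. Ornithine aminotransferase turns ornithine into pyrroline-5-carboxylate, the direct precursor of proline, and the same intermediate is made from glutamate by the enzyme that Aldh18a1 encodes. Pyrroline-5-carboxylate reductase then completes proline, an amino acid that makes up a large part of collagen, while ornithine decarboxylase draws ornithine into polyamines.

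The libraries held 73977669 to 84565450 counts. Levels are given as FPKM, fragments scaled by exon length and by mapped reads, which corrects for gene length and allows levels of different genes to be set side by side. Of the 7 genes, 6 reached 1 FPKM in at least 3 libraries and entered the tests with 12016 genes in all, whereas Prodh stayed below that level and is described by its counts. Among the MSC markers, Itgb1 (CD29) ranged from 246.6 to 394.1 FPKM and Cd44 from 38.5 to 65.3 FPKM, but Eng stayed below 1 FPKM in every library. Other MSC markers were lower with TGF-β1: Ly6a (Sca-1) was at 241.0 to 251.1 FPKM in untreated, 13.0 to 18.8 FPKM in TGF-β1, 82.6 to 102.8 FPKM in M-MDSC sup and 63.3 to 69.2 FPKM in G-MDSC sup libraries, Pdgfra went from 13.2 to 15.5 FPKM in untreated libraries to 4.58 to 6.93 FPKM in the rest, and Thy1 from 3.94 to 5.27 FPKM to 1.34 to 2.42 FPKM. Of the other 4 markers, Col1a1, Col1a2 and Pdgfrb were at 32.0 FPKM or more in every library and Nt5e was between 0.321 and 1.66 FPKM. None of 7 endothelial and blood markers reached 1 FPKM in all libraries of any group, and Kit had 0 counts in the untreated and TGF-β1 libraries. Their summed level was 0.419 to 0.640 FPKM in untreated and 0.337 to 0.405 FPKM in TGF-β1 libraries, and 1.70 to 3.00 FPKM with M-MDSC sup and 2.05 to 2.67 FPKM with G-MDSC sup, where the globin genes Hba-a1 and Hbb-bs made up most of it. Among 24 myeloid markers, Mpo, Elane and Retnla had 0 counts in every library and Cd14 was between 12.4 and 23.6 FPKM in all of them. Lyz2 was at 0 to 0.191 FPKM in the 6 libraries without supernatant and 0.651 to 2.29 FPKM in the 6 with it. Laptm5 and Cybb were also higher in all 6 libraries with supernatant. Ly6c2 and Ly6g were at 1.59 to 1.89 FPKM in untreated libraries and at 0.308 FPKM or less in the rest. The 24 markers summed to 30.0 to 32.4 FPKM in untreated and 16.2 to 17.8 FPKM in TGF-β1 libraries. With M-MDSC sup they summed to 23.6 to 29.6 FPKM and with G-MDSC sup to 30.4 to 32.0 FPKM. Transcripts of other organs stood out with MDSC supernatant: 8 liver markers had 0 counts in all 6 libraries without it, summed to 67.4 to 72.9 FPKM with G-MDSC sup, and were split with M-MDSC sup, at 0.526 and 0.527 FPKM in replicates 1 and 2 and 62.6 FPKM in replicate 3. The kidney tubule markers, 11 in number, summed to 0.360 to 0.593 FPKM without supernatant, 44.3 to 58.1 FPKM with G-MDSC sup, and 16.3, 13.1 and 79.9 FPKM with M-MDSC sup. The kidney, globin and Lyz2 levels were above those of every library without supernatant in all 6 libraries with it. The myeloid sum was above TGF-β1 alone in those 6 libraries, but overlapped or lay below the untreated range. All of these move with each difference between supernatant and TGF-β1 alone given here, and their part in those results was not tested.

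Promoter windows of Pycr1, Aldh18a1 and Ass1 are shown because these genes carried the differences described here: Pycr1 and Aldh18a1 were higher with TGF-β1, and Ass1 was higher with G-MDSC sup. RefSeq windows on GRCm38.p6, from 250 bases before to 50 bases after the start of each gene, were at hand for 6 of the 7 genes, and Asl was not among them. Of 5 motifs searched on both strands, capitals mark the matches in each window, read 5′ to 3′ along the gene. The Pycr1 window (chr11:120643699-120643998, minus strand) matched the CCAAT/enhancer binding protein-ATF response element TGATGNAAN as TGATGCAAT at base 148 and the short SMAD-binding element CAGACA, in reverse as TGTCTG, at base 287. The Aldh18a1 window (chr19:40588414-40588713, minus strand) held the same reversed element at base 108 and an E-box, CACGTG, at base 192, and the Ass1 window (chr2:31470020-31470319, plus strand) held an E-box at base 215.
Pycr1: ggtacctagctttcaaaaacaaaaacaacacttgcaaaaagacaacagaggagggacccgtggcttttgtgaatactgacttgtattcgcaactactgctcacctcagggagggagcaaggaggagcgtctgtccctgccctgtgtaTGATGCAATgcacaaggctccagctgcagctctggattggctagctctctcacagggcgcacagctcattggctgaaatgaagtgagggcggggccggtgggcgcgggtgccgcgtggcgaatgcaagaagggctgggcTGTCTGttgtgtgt
Aldh18a1: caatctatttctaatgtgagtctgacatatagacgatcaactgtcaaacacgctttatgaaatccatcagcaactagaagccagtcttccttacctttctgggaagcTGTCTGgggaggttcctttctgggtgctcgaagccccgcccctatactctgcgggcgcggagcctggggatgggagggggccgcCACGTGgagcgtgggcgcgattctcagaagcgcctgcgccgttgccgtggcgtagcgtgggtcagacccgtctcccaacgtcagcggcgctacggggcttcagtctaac
Ass1: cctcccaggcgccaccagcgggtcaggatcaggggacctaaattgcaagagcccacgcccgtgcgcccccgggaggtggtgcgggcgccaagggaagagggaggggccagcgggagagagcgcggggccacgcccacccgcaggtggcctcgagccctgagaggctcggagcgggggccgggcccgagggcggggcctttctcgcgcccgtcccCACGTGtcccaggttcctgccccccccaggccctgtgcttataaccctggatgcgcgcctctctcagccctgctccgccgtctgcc
Among 32851 RefSeq windows of the same length, 21.0% held CAGACA, 3.95% held TGATGNAAN and 7.15% held CACGTG. The other motifs, the palindromic SMAD element GTCTAGAC (0.213% of windows) and the TATA box TATAAA (13.6%), were found in none of the 6 windows. The Oat window held CAGACA, and the Odc1 and Prodh windows held none of the 5 motifs. A match of letters is not evidence that a factor binds there.

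**Figure D1:**
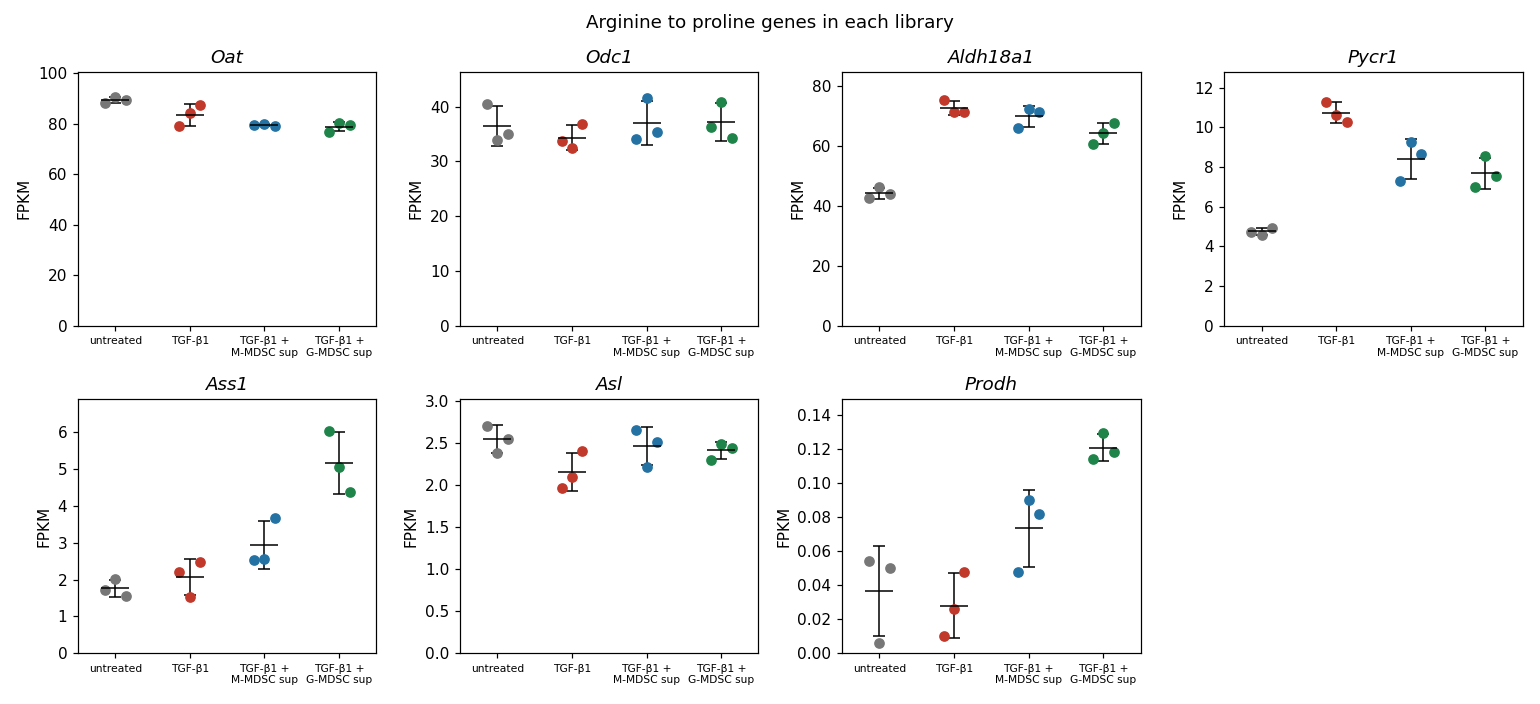
FPKM of each of the 7 genes (y axis, linear and starting at 0) in the 4 groups (x axis). Points are the 3 libraries in the order of their numbers, the horizontal mark is their mean and the bar is ± 1 SD; Aldh18a1 and Pycr1 stand above the untreated libraries in all 9 libraries with TGF-β1, and Ass1 is highest in the 3 libraries with G-MDSC sup.

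Oat, the aminotransferase that passes ornithine towards proline, was the most abundant of the 7 genes. It was at 88.3, 90.7 and 89.6 FPKM in untreated libraries, 78.9, 84.5 and 87.5 FPKM with TGF-β1, 79.6, 80.1 and 79.3 FPKM with M-MDSC sup, and 76.9, 80.5 and 79.3 FPKM with G-MDSC sup. The untreated libraries were all above the others by a small margin, with a mean of 89.5 FPKM against 83.6, 79.7 and 78.9 FPKM. Across all genes tested, 30.0% had TGF-β1 libraries that all lay below the untreated ones and 16.6% had them all above. Against untreated libraries, 28.0% of all genes tested were wholly below and 19.4% wholly above with M-MDSC sup, and 26.8% and 19.1% with G-MDSC sup. In the edgeR test the log2 fold change was -0.09 with M-MDSC sup (adjusted p = 0.270) and -0.11 with G-MDSC sup (adjusted p = 0.166), both against TGF-β1 alone. Without TGF-β1 replicate 1, the lowest of its group, the G-MDSC sup difference was -0.15 (adjusted p = 0.0467, edgeR).

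Odc1, the decarboxylase that starts polyamine synthesis from ornithine, ranged from 32.4 to 41.6 FPKM over the 12 libraries, and all 4 groups overlapped. Its means were 36.5, 34.3, 37.0 and 37.1 FPKM in untreated, TGF-β1, M-MDSC sup and G-MDSC sup libraries. With either supernatant the log2 fold change from TGF-β1 alone was 0.09, with 95% intervals of -0.13 to 0.30 (adjusted p = 0.727 for M-MDSC sup and 0.745 for G-MDSC sup, edgeR). The Oat to Odc1 ratio of FPKM stayed between 1.92 and 2.68 in all libraries.

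Aldh18a1, which makes pyrroline-5-carboxylate from glutamate, was higher in every library with TGF-β1 than in any untreated library. Untreated libraries held 42.7, 46.3 and 44.1 FPKM and TGF-β1 libraries 75.5, 71.3 and 71.6 FPKM, a log2 fold change of 0.77, or 1.71-fold. With M-MDSC sup the level was 66.1, 72.6 and 71.5 FPKM, overlapping TGF-β1 alone. With G-MDSC sup it was 60.8, 64.4 and 67.7 FPKM, below every library with TGF-β1 alone, as was the case for 9.55% of all genes tested, while 13.2% lay wholly above. The rise kept was 90.3% with M-MDSC sup and 70.1% with G-MDSC sup. Against TGF-β1 alone the G-MDSC sup difference was -0.21 on the log2 scale (SE 0.053, adjusted p = 0.0501, edgeR) and did not pass, but it did with DESeq2 (adjusted p = 0.0215), without G-MDSC sup replicate 3 (adjusted p = 0.0356, edgeR) and without M-MDSC sup replicate 1 (adjusted p = 0.0407, edgeR). The M-MDSC sup difference was -0.08 (adjusted p = 0.504, edgeR). Gm15801 overlaps Aldh18a1 on the same strand and had a mean of 750 counts, against 14842 or more for Aldh18a1.

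Pycr1, a mitochondrial reductase that makes proline, kept a smaller part of its rise under supernatant than Aldh18a1 did, by group means. The difference between these genes was not tested. Untreated libraries held 4.74, 4.59 and 4.94 FPKM and TGF-β1 libraries 11.3, 10.6 and 10.3 FPKM, a log2 fold change of 1.23, or 2.35-fold. With M-MDSC sup the level was 7.31, 9.24 and 8.68 FPKM and with G-MDSC sup 6.99, 8.54 and 7.56 FPKM. These 6 libraries, which also held the raised kidney, globin and Lyz2 levels, lay between the untreated and the TGF-β1 libraries with no overlap. Of all genes tested, 10.6% had M-MDSC sup libraries wholly below those of TGF-β1 alone and 13.4% wholly above. For G-MDSC sup, 9.55% lay wholly below TGF-β1 alone. Wholly above the untreated libraries were 19.4% of all genes with M-MDSC sup and 19.1% with G-MDSC sup. Of the rise, 61.1% was kept with M-MDSC sup and 49.2% with G-MDSC sup. Pycr1 fell with G-MDSC sup against TGF-β1 alone, by 0.51 on the log2 scale (SE 0.094, adjusted p = 0.00891, edgeR), and passed under all 21 alternative settings, with adjusted p between 5.53e-05 and 0.0420. With M-MDSC sup it fell by 0.37 (SE 0.094, adjusted p = 0.0497, edgeR). That call passed in only 5 of 21 alternative settings, with adjusted p between 0.00940 and 0.164, and it was lost when any single library was left out other than M-MDSC sup replicate 2 or G-MDSC sup replicates 1 and 2, including without M-MDSC sup replicate 3 (adjusted p = 0.107, edgeR). Between the supernatants the log2 fold change was 0.13 (95% interval -0.08 to 0.34, adjusted p = 0.930, edgeR). Aldh18a1 was 8.92 to 10.1 times as abundant as Pycr1 in untreated libraries, 6.68 to 6.97 times with TGF-β1, and 7.54 to 9.03 times with either supernatant.

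**Figure D2:**
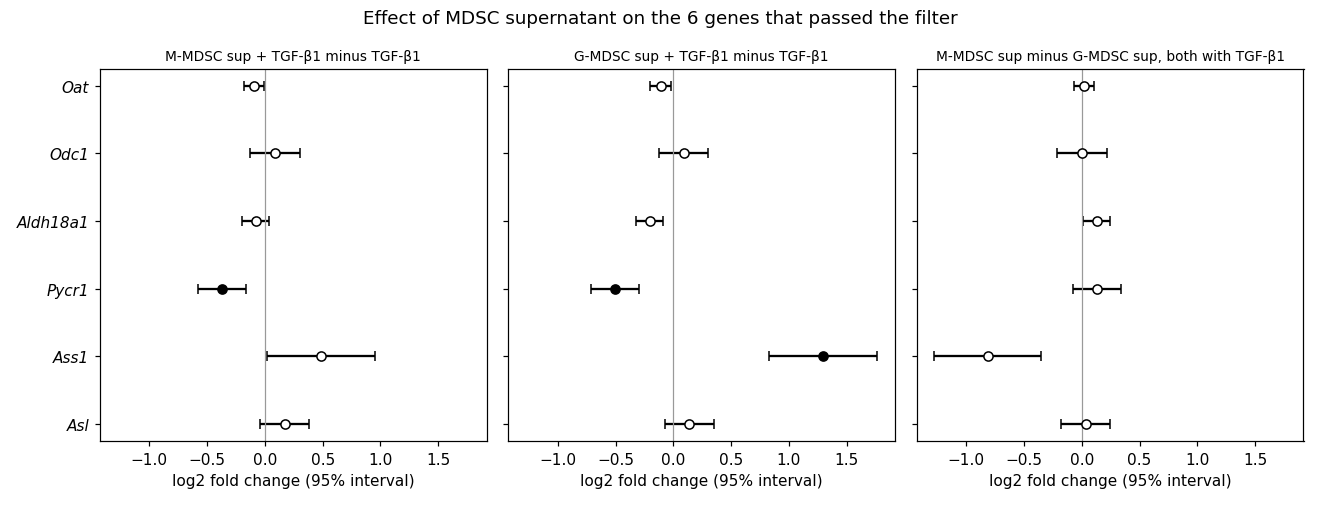
Log2 fold changes (x axis) of the 6 genes that passed the filter (y axis) for M-MDSC sup against TGF-β1 alone, G-MDSC sup against TGF-β1 alone, and M-MDSC sup against G-MDSC sup. Bars are 95% intervals derived from the edgeR test, and filled circles have an adjusted p under 0.05 by edgeR. Pycr1 is filled below 0 in the first and second panels and Ass1 above 0 in the second.

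Ass1, which joins citrulline and aspartate in the rebuilding of arginine, was higher with G-MDSC sup. Untreated libraries held 1.72, 2.01 and 1.55 FPKM and TGF-β1 libraries 2.19, 1.52 and 2.47 FPKM, which overlapped. With M-MDSC sup the level was 2.54, 2.57 and 3.68 FPKM and with G-MDSC sup 6.05, 5.06 and 4.37 FPKM. All G-MDSC sup libraries were above all other libraries, and the M-MDSC sup libraries were above TGF-β1 alone by a narrow margin in replicates 1 and 2. Of all genes tested, 13.2% lay wholly above TGF-β1 alone with G-MDSC sup and 13.4% with M-MDSC sup. Ass1 rose with G-MDSC sup against TGF-β1 alone by 2.46-fold (95% interval 1.78 to 3.40, adjusted p = 0.00411, edgeR), and passed under all 21 alternative settings, with adjusted p up to 0.0221. With M-MDSC sup the difference was 0.48 (SE 0.21, adjusted p = 0.276, edgeR), and 0.29 without replicate 3 (adjusted p = 0.606, edgeR). Between M-MDSC sup and G-MDSC sup it was -0.81 (95% interval -1.28 to -0.35, adjusted p = 0.323, edgeR), which passed with DESeq2 only (adjusted p = 0.0235). The M-MDSC sup libraries lay wholly below those of G-MDSC sup, as they did for 6.03% of all genes tested.

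Ass1 is also made in quantity in liver and in kidney tubules, so the markers of both organs are set beside it. Within G-MDSC sup, where Ass1 was at 6.05, 5.06 and 4.37 FPKM, the liver markers summed to 67.4, 67.7 and 72.9 FPKM. The kidney markers summed to 44.3, 58.1 and 54.8 FPKM in the same order. In replicates 1 and 2 of M-MDSC sup, where the liver markers summed to 0.526 and 0.527 FPKM and the kidney markers to 16.3 and 13.1 FPKM, Ass1 was at 2.54 and 2.57 FPKM. In replicate 3, with 62.6 FPKM of liver markers and 79.9 FPKM of kidney markers, it was at 3.68 FPKM. The urea cycle gene Cps1, whose product is a liver enzyme, had 0 counts in all 6 libraries without supernatant and in M-MDSC sup replicates 1 and 2, but 367 counts in replicate 3 and 345, 382 and 354 counts with G-MDSC sup. Otc, the next enzyme of the cycle, had 16, 19 and 31 counts with G-MDSC sup, 10 counts in M-MDSC sup replicate 3 and 0 counts in M-MDSC sup replicates 1 and 2, and 12 counts in untreated replicate 2 against 0 in the other 5 libraries without supernatant. Every G-MDSC sup library held liver and kidney transcripts, so no G-MDSC sup library without them could be compared. M-MDSC sup replicate 3 had a higher kidney sum, a lower liver sum and a lower Ass1 level than any G-MDSC sup library. The globin and Lyz2 transcripts were also higher in all 6 libraries with supernatant than in the 6 without it. The part of these transcripts in the Ass1 result was not tested.

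**Figure D3:**
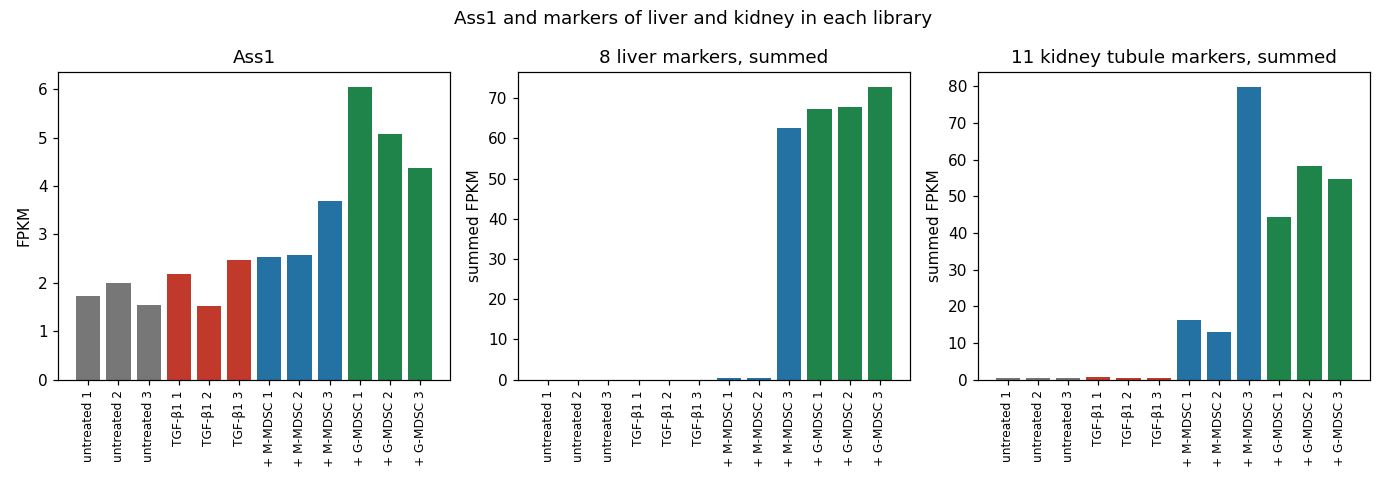
Ass1 (FPKM, left), the summed FPKM of 8 liver markers (middle) and of 11 kidney tubule markers (right), on y axes that start at 0, in each of the 12 libraries (x axis), with bars coloured by group. The liver bars are at 0 without supernatant, 0.526 and 0.527 FPKM in M-MDSC sup replicates 1 and 2, and 62.6 to 72.9 FPKM in the other 4 libraries with supernatant.

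Asl, which releases arginine in the step after Ass1, showed no such rise. It was at 2.71, 2.38 and 2.55 FPKM in untreated libraries, 1.96, 2.09 and 2.40 FPKM with TGF-β1, 2.66, 2.21 and 2.51 FPKM with M-MDSC sup and 2.29, 2.49 and 2.45 FPKM with G-MDSC sup. The groups overlapped throughout. From TGF-β1 alone it differed on the log2 scale by 0.17 with M-MDSC sup (95% interval -0.04 to 0.38, adjusted p = 0.411, edgeR) and 0.14 with G-MDSC sup (95% interval -0.07 to 0.35, adjusted p = 0.545, edgeR).

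Prodh, which begins the breakdown of proline, was at very low counts. Untreated libraries had 36, 5 and 36 counts and TGF-β1 libraries 7, 20 and 34 counts. With M-MDSC sup there were 32, 58 and 57 counts and with G-MDSC sup 86, 90 and 83 counts. The G-MDSC sup libraries were above all others, and the highest mean was 0.121 ± 0.008 FPKM (SD, n = 3), still far below the filter. In the fit without that filter, the difference of G-MDSC sup from TGF-β1 alone was 2.05 on the log2 scale (adjusted p = 0.206, edgeR), which did not pass. The liver and kidney markers were also high in those libraries, and their part was not tested. Prodh overlaps Dgcr6 on the opposite strand, with a mean of 1850 counts, and whether the counting used strand is not given in the sources used here. Low counts in the table pile up at multiples of 4, so a value near 4 may stand for fewer independent fragments.

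Counted over the 6 genes tested, M-MDSC sup against TGF-β1 alone gave 0 higher and 1 lower (Pycr1), where 2.83% of all genes tested passed as higher and 1.95% as lower. At an unadjusted p under 0.05 edgeR gave 1 higher and 2 lower, where 16.7% of all genes reached that level. After adjustment DESeq2 gave 0 higher and 1 lower, where it passed 6.91% of all genes, and limma gave 0 of either, where it passed 4.49%. G-MDSC sup against TGF-β1 alone gave 1 higher (Ass1) and 1 lower (Pycr1), where 3.10% of all genes passed as higher and 2.46% as lower. At an unadjusted p under 0.05 edgeR gave 1 higher and 3 lower, where 17.2% of all genes reached that level. After adjustment DESeq2 gave 1 higher and 2 lower, where it passed 8.24% of all genes, and limma gave 1 of each, where it passed 5.61%. Both comparisons use the same TGF-β1 libraries, which were also in view when the set was chosen. M-MDSC sup against G-MDSC sup gave 0 of 6 in either direction by edgeR, where 0.125% of all genes passed. At an unadjusted p under 0.05 it gave Aldh18a1 higher and Ass1 lower, where 6.33% of all genes reached that level, and after adjustment DESeq2 gave 1 lower and limma 0, where they passed 1.01% and 0.325% of all genes. The median log2 fold change of the 6 genes was 0.0046, -0.01 and 0.03 in the 3 comparisons, beside -0.01, -0.01 and 7.01e-05 for all genes tested. The 6 genes were far apart in level, with Oat above Aldh18a1 and Aldh18a1 above Odc1 in every library, followed by Pycr1, whose level in untreated libraries (4.59 to 4.94 FPKM) was well below Odc1 and above Asl and Ass1.

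Other genes of the pathway were taken from 6 lists with 70 genes in the table, of which 51 passed the filter. With TGF-β1 alone against untreated cells, 20 rose and 11 fell by edgeR, or 39.2% and 21.6%, where 16.1% of all genes tested rose and 17.9% fell. The lists were chosen with earlier results of this same contrast known and hold collagen genes, so these counts are a description and not independent evidence about the pathway. With FPKM of at least 1 required in all libraries the counts were 18 and 11, a filter that Gls2 and Azin2 could not pass, since their untreated means were below 1 FPKM. Their median log2 fold change was 0.04, beside 0.0005 for all genes tested. Of 7 transporters of arginine and ornithine, 4 rose. These were the cationic amino acid carriers Slc7a3 (2.29 ± 0.09 to 5.97 ± 0.57 FPKM, SD, n = 3, log2 fold change 1.44), Slc7a1 (to 19.9 ± 1.4 FPKM, 0.72) and Slc7a6 (0.35), and Slc3a2 (0.59), the heavy chain that pairs with light-chain carriers. The mitochondrial ornithine carrier Slc25a15 fell, by 0.37 on the log2 scale. Of 11 genes of the urea cycle, of nitric oxide and of creatine synthesis, 3 were tested and all fell: Gamt, which methylates guanidinoacetate to creatine, by 0.96 (11.2 ± 0.9 to 5.50 ± 0.41 FPKM, SD, n = 3), and Ddah2 and Ddah1, which break down methylated arginines, by 0.35 and 0.22.

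Of 18 polyamine genes tested, 3 were higher and 4 lower with TGF-β1, or 16.7% and 22.2%, close to the 16.1% and 17.9% of all genes tested. Azin2, an antizyme inhibitor, rose by 0.63 on the log2 scale (0.917 ± 0.210 to 1.37 ± 0.17 FPKM, SD, n = 3, with an untreated mean below the filter level), Dhps, which uses spermidine to modify a translation factor, by 0.44, and Amd1, which supplies the aminopropyl donor, by 0.26. Atp13a2, a lysosomal polyamine exporter, fell by 0.68 and Smox, spermine oxidase, by 0.55, and Sat1 and Mtap were also lower, at -0.28 and -0.25. In the glutamate list, 4 of 9 rose: the transaminase Gpt2 by 1.25 (to 25.2 ± 0.5 FPKM, SD, n = 3), the glutaminase Gls2 by 1.09 (0.714 ± 0.151 to 1.46 ± 0.14 FPKM, SD, n = 3, tested only because it passed the filter where it was high), the asparagine synthetase Asns by 0.78 and Got1 by 0.59. Got2 and Glud1 fell, by 0.16 and 0.15. Of 5 further genes of proline synthesis, breakdown and transport, the proline transporter Slc38a2 rose by 0.34 and the dipeptidase Pepd, which frees proline from peptides, by 0.35, and the other 3 did not pass.

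Among 9 genes that use proline, 7 rose and 1 fell with TGF-β1, where 16.1% of all genes tested rose and 17.9% fell. Collagen III chain Col3a1 rose by 1.60 on the log2 scale (32.7 ± 0.4 to 95.3 ± 3.1 FPKM, SD, n = 3), collagen I chains Col1a1 by 1.11 (498.2 ± 21.7 to 1033 ± 8 FPKM) and Col1a2 by 0.64, and the prolyl hydroxylase subunit P4ha3 by 1.08 (6.02 ± 0.26 to 12.2 ± 0.2 FPKM). The prolyl-tRNA synthetase Eprs rose by 0.42, P4hb by 0.36 and P4ha2 by 0.35, while P4ha1 fell by 0.14. For each list, genes beyond the 4 with the largest change were named after their values were seen.

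**Figure D4:**
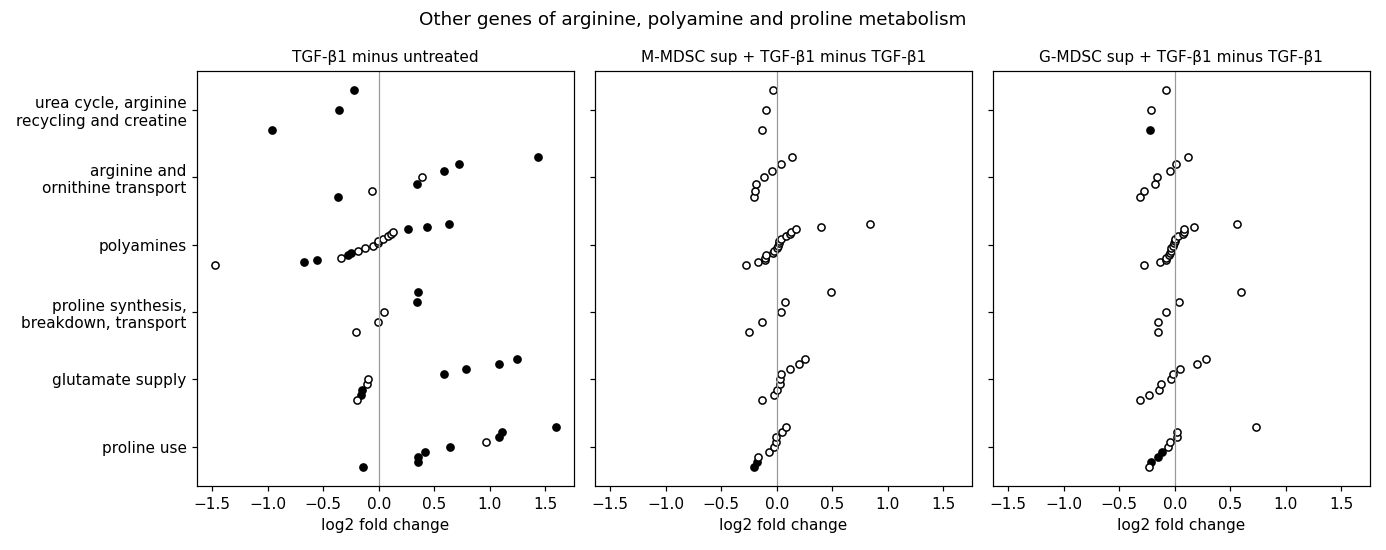
Log2 fold changes (x axis) of the 51 tested pathway genes, grouped by list (y axis), for TGF-β1 against untreated, M-MDSC sup against TGF-β1 alone and G-MDSC sup against TGF-β1 alone. Each point is a gene, filled where its adjusted p by edgeR is under 0.05; 31 points are filled in the first panel, 2 in the second and 4 in the third.

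With M-MDSC sup 0 of these 51 genes rose and 2 fell against TGF-β1 alone, or 3.92% lower where 1.95% of all genes tested fell and 2.83% rose: Col3a1 by 0.21 (83.7 ± 2.2 FPKM, SD, n = 3, adjusted p = 0.00857, edgeR) and Col1a2 by 0.18 (adjusted p = 0.0189, edgeR). With G-MDSC sup 0 rose and 4 fell, or 7.84% lower where 2.46% of all genes fell and 3.10% rose: Ddah1 by 0.22, Col1a2 by 0.22, Col3a1 by 0.16 and P4hb by 0.12, with adjusted p between 0.00579 and 0.0372 by edgeR. These counts were small and moved with the libraries used: the 2 lower with M-MDSC sup became 0 with the groups compared only, and the 4 lower with G-MDSC sup became 2 in that fit and 1 without TGF-β1 replicate 3. The arginine carrier Slc7a1 was at -0.28 with G-MDSC sup (adjusted p = 0.0520, edgeR) and did not pass. At an unadjusted p under 0.05, edgeR gave 4 higher and 9 lower with M-MDSC sup and 2 higher and 11 lower with G-MDSC sup, where 16.7% and 17.2% of all genes reached that level in either direction. After adjustment DESeq2 gave 0 higher and 2 lower with M-MDSC sup and 1 higher and 7 lower with G-MDSC sup, and limma gave 0 higher in both, with 1 lower and 2 lower. Over all genes tested and both directions, DESeq2 passed 6.91% and 8.24% in these comparisons and limma 4.49% and 5.61%. Between the supernatants edgeR gave 0 of 51 in either direction, where 0.125% of all genes passed, with 5 higher and 3 lower in M-MDSC sup at an unadjusted p under 0.05, where 6.33% of all genes reached that level. After adjustment that comparison gave 1 higher by DESeq2 and 0 by limma, which passed 1.01% and 0.325% of all genes. Because bulk libraries were sequenced, fewer cells that make a transcript and less of it per cell cannot be told apart for any gene named here.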

How the data were processed

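Poly(A) RNA of cultured MSCs was sequenced as paired reads. Per the study's methods, the authors used fastp for read quality, HISAT2 for alignment to GRCm38 and StringTie for transcripts; the submitters' processing notes name cutadapt 1.9, HISAT2 2.0.4 and StringTie 1.3.4d. The authors deposited raw counts per gene and library and FPKM that they calculated from exon fragments, mapped reads and exon length. A count of 0 is written as FPKM 0.0001 and was read as 0. The counting tool and its strand setting are not given in the sources used here, while the kit marks strand. Of counts from 1 to 12, 44.3% are 4, 8 or 12.

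A gene was tested where 3 or more of the 12 libraries reached FPKM 1, which left 12016 genes. The model of edgeR 4.0.16 (R 4.3.3) took all 4 groups together after TMM scaling of the counts, using the two-sided quasi-likelihood F test and Benjamini-Hochberg adjustment over all genes tested, at 0.05. The scripts were tested on simulated data. Alternatives were DESeq2 1.42.0, limma 3.58.1 on log2(FPKM + 1) and log2(FPKM + 0.1), median-ratio scaling, other filters, counts divided by 4, the groups compared only, a replicate block, the study's rule of a fold above 2 or below 0.5 with an unadjusted p under 0.05, and each library left out in turn. The submitters' processing notes also name edgeR and DESeq2.

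The 7 genes, the lists and the tests were chosen with earlier results of these data known. All 7 genes were named, with up to 4 genes of each list and comparison with the largest change among those that passed. Of the set 2 genes, and of the lists 1 gene, are not reported here. Markers were read as counts at FPKM 1, summed FPKM and genes at 0. No 2 libraries held the same values. Depth was 73977669 to 84565450 counts. Residuals gave no sign that replicate numbers pair libraries, with a mean correlation of 0.0017 over 18 pairs with the same number. With 3 libraries in a group this cannot exclude pairing, and what the numbers stand for is not given. Columns of annotation in the table were not used as measurements.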

Additional observations from a re-analysis of the deposited data

How the results depend on the processing

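The fall of Pycr1 and the rise of Ass1 with G-MDSC sup passed under every alternative test, scaling, filter and left-out library that was run, except that the rule of a fold above 2 or below 0.5 left 0 genes lower. The count of 1 gene lower with M-MDSC sup (Pycr1) became 0 with median-ratio scaling, with either other filter, with limma at either pseudocount, with the groups compared only, with the fold rule, and with a replicate block (adjusted p of Pycr1 0.0659, edgeR); it was 0 to 1 over left-out libraries. With G-MDSC sup the lower genes numbered 2 with DESeq2 and 1 to 2 over left-out libraries. Between the supernatants DESeq2 gave 1 lower. The cause of these changes was not tested, except that the fold rule excludes small changes by construction.

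Pathway genes past the threshold with TGF-β1 fell from 20 higher and 11 lower to 6 and 1 under the fold rule. With M-MDSC sup the 2 lower became 1 with FPKM of at least 1 in all libraries, with limma at either pseudocount and with the replicate block, and 0 with the groups compared only and the fold rule. They were 1 to 3 over left-out libraries (1 without TGF-β1 replicate 1, 2 or 3 or without M-MDSC sup replicate 2 or 3), and the higher ones 0 to 1. With G-MDSC sup the 4 lower became 2 with no filter, with the stricter filter, with limma at either pseudocount and with the groups compared only, 7 with DESeq2 and 0 under the fold rule. They were 1 to 6 over left-out libraries, 1 without TGF-β1 replicate 3 and 2 without TGF-β1 replicate 1 or 2 or untreated replicate 2, and DESeq2 gave 1 higher. Between the supernatants, 1 was higher with DESeq2 and with the groups compared only, and 0 to 1 over left-out libraries. The replicate block changed no other call of the 6 genes tested, and 3 of 12 libraries correlated best with a library of their own number.

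Log2 differences near 0 changed sign. Between the supernatants, Odc1 was 0.00058 with median-ratio scaling and with DESeq2 and 0.0023 with no filter. Asl with M-MDSC sup against untreated cells was 0.0024 with no filter. Over left-out libraries, the range between the supernatants was -0.00078 to 0.030 for Oat, -0.093 to 0.073 for Odc1 and -0.027 to 0.10 for Asl. Odc1 ranged from -0.095 to 0.039 for TGF-β1 against untreated cells, -0.0051 to 0.16 for M-MDSC sup against TGF-β1 alone, and, against untreated cells, -0.034 to 0.14 with M-MDSC sup and -0.014 to 0.14 with G-MDSC sup. Asl ranged from -0.075 to 0.056 for M-MDSC sup against untreated cells, and Prodh from -0.91 to 0.098 for TGF-β1 against untreated cells.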
